A study of Mus musculus with 9 samples.

Results

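The replication-dependent histone genes are the clustered genes that supply most histone protein to dividing cells. They were taken here as all genes whose symbol began with Hist1h, Hist2h, Hist3h or Hist4h, and pseudogene symbols ending in -ps (1 gene) were left out. This gave 69 of 52550 genes. By histone class they were 6 linker histone H1 genes, 20 H2A genes, 18 H2B genes, 12 H3 genes and 13 H4 genes. By cluster, 56 were Hist1 genes, 10 Hist2 genes, 2 Hist3 genes and 1 a Hist4 gene.

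RNA was measured by RNA-seq in cerebral cortex of male C57BL/6N mice aged 9 to 12 weeks, in 3 groups of 3 libraries, and the labels give 3 mice a group. The knockdown group received a locked nucleic acid antisense oligo against the enhancer RNA eRNA_06347 through the lateral ventricles, and then 1 h of middle cerebral artery occlusion (MCAO, a filament model of stroke) and 6 h of reperfusion. The control oligo group received a negative control oligo by the same route, with the same occlusion and reperfusion. The sham group had the neck incision without a filament, no oligo is named for it, and its data were taken over from a previous study by the submitters. Both MCAO groups used poly(A)-selected, stranded mRNA libraries from infarcted ipsilateral cortex, while the library preparation of the sham group is not given in the sources used here. Stroke, oligo, data set and library preparation therefore cannot be told apart in any comparison with sham. The level of eRNA_06347 itself was not analysed here. Values per library are given in the order of the labels' replicate numbers, 2, 3 and 4 in knockdown and 1, 2 and 3 in the other groups.

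Histone octamers of H2A, H2B, H3 and H4 wrap DNA into nucleosomes, and H1 binds the linker DNA between them. Messenger RNAs of the replication-dependent genes are made mainly in S phase and, unlike nearly all other mRNAs, end in a stem-loop bound by Slbp instead of a poly(A) tail. Some of these genes can also give polyadenylated mRNAs from a signal downstream of the stem-loop, above all in cells that have left the cell cycle, and adult cortex consists mostly of such cells. Replication-independent variants such as H3f3b come from polyadenylated mRNAs throughout the cell cycle.

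The 3′ ends of the annotated transcripts were read from the GENCODE M21 transcripts (GRCm38), in which all 77 member transcripts of the files were found at the same length. A stem-loop was counted as GGNNNTNNNNANNNCC on the transcript strand after the coding sequence, with all 6 pairs of the stem matched. It was found in 46 of 69 members, counted as genes, and in 724 of 55496 other protein-coding transcripts, which were searched over their whole length. Member models without a placed coding end, such as those of Hist1h2be, were also searched throughout. For 17 members the models with a placed coding end held 10 or fewer bases after it, too few to hold a stem-loop. Of these, Hist1h2bq and Hist1h2br also have models of several exons without a placed coding end, in which no stem-loop was found. A poly(A) signal was counted as AATAAA or ATTAAA on the transcript strand in the last 40 bases of the model. It was found in 17 members and in 49.4% of the other transcripts. In the member models that held both motifs, the signal lay past the stem-loop. A match describes the annotated window only. The most frequent stem-loop, shared by 25 members of the H1, H2A, H2B and H3 classes, is shown for the linker histone gene Hist1h1c, and the form of 7 H4 genes for Hist1h4c and Hist1h4h. Capitals mark the 16 bases of the stem-loop.
Hist1h1c stem-loop, chr13:23739507-23739532, plus strand: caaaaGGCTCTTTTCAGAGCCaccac
Hist3h2a stem-loop, chr11:58955167-58955192, plus strand: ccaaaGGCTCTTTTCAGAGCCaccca
Hist1h4c stem-loop, chr13:23698084-23698109, minus strand: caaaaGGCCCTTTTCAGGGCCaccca
Hist1h4h stem-loop, chr13:23531453-23531478, plus strand: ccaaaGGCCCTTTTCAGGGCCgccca
Hist1h4i stem-loop, chr13:22040961-22040986, minus strand: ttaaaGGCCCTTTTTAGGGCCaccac
The poly(A) signals of the 5 members that had one and reached 1 TPM in every MCAO library are shown next, to show the annotated ends of these members. Capitals mark the signal.
Hist1h1c poly(A) signal, chr13:23740332-23740361, plus strand: gtatgcttctAATAAAaagcgtttagtttt
Hist3h2a poly(A) signal, chr11:58956787-58956816, plus strand: gtatatgcccAATAAAataagagtacgtgt
Hist3h2ba poly(A) signal, chr11:58949497-58949526, plus strand: taatggtattAATAAAtttggttcaatttt
Hist1h4i poly(A) signal, chr13:22040637-22040666, minus strand: ttctgtttacATTAAAagtattctatgcta
Hist2h2be poly(A) signal, chr3:96223707-96223736, plus strand: tattattattAATAAAgttaccgattagtt

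The libraries differed in what RNA they held. Genes on the nuclear chromosomes that code for protein took 54.7 to 63.9% of TPM (a level per transcript length, scaled to one total in every library) in the MCAO libraries and 30.6 to 34.2% in the sham libraries, and mitochondrial genes took 22.6 to 28.9% in MCAO and 0.277 to 0.577% in sham. RNAs known to lack a poly(A) tail were listed at high levels in sham: Rn7sk, the 7SK RNA that restrains transcription elongation, was at 55.0, 36.9 and 84.7 TPM in knockdown, at 119, 79.6 and 165 TPM in control oligo and at 56269, 58266 and 61698 TPM in sham libraries. Aligned bases came to 4921 to 5523 Mb in an MCAO library and 2981 to 3182 Mb in a sham library. A TPM of 1 over 500 bases stood for 1260 to 1415 aligned bases in MCAO and 1109 to 1245 in sham, while a transcript of minimal coverage most often held 282 bases in MCAO and 51 in sham libraries. Levels far below 1 TPM in MCAO thus rest on few fragments. Cortical neuron markers were present in all libraries, with summed levels of 2626 to 4207 TPM in knockdown, 3256 to 3759 TPM in control oligo and 1982 to 2224 TPM in sham cortex. Knockdown replicate 4 stood apart in markers of several cell types. Neutrophil markers summed to 71.7, 90.5 and 1380 TPM in knockdown, to 323, 28.9 and 334 TPM in control oligo and to 1.53 to 5.17 TPM in sham. In that library astrocyte markers summed to 2287 TPM, against 906 and 1184 TPM in the other knockdown libraries, microglia markers to 231 TPM, against 106 and 91.0 TPM, and endothelial markers to 240 TPM, against 107 and 101 TPM. Its cortical neuron markers, at 2626 TPM, were the lowest of the 6 MCAO libraries.

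All members together summed to 163, 197 and 181 TPM in knockdown, to 142, 108 and 135 TPM in control oligo and to 685, 495 and 778 TPM in sham libraries. The 3 groups did not overlap, with sham far above both MCAO groups and knockdown above control oligo. As a share of the TPM of nuclear protein-coding genes, the members took 0.0255, 0.0313 and 0.0317% in knockdown, 0.0249, 0.0177 and 0.0247% in control oligo and 0.202, 0.145 and 0.254% in sham. The order of the groups was the same on this scale. In bulk tissue, fewer cells of a type and less RNA per cell cannot be told apart.

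**Figure D1:**
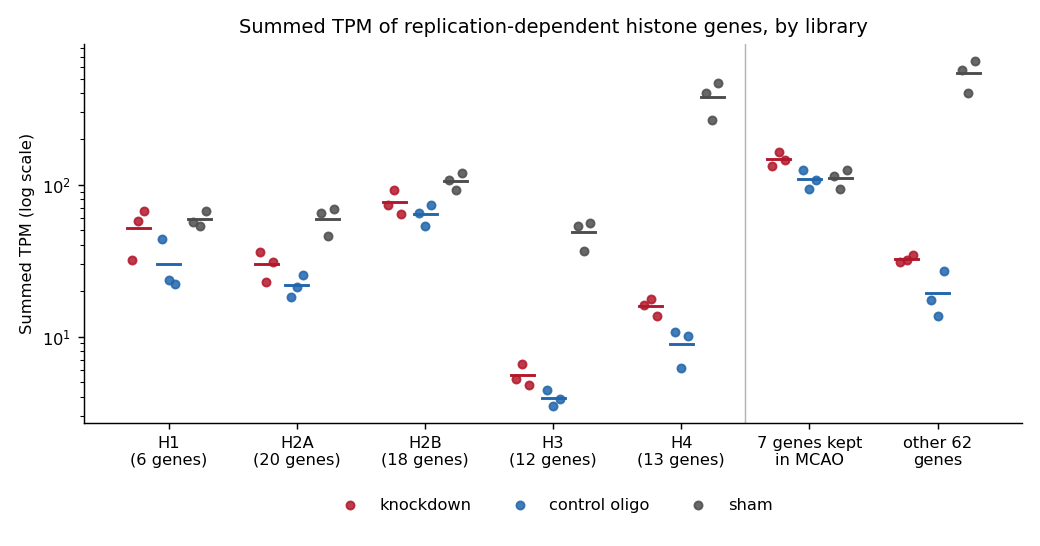
Summed TPM (log axis) of the 5 histone classes, of the 7 genes kept in MCAO libraries and of the other 62 genes, in knockdown, control oligo and sham libraries; points are libraries and bars group means. The H4 sums lie between 6.20 and 17.7 TPM in MCAO libraries and between 267 and 466 TPM in sham libraries, while the TPM sums of the 7 kept genes overlap between control oligo and sham.

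The classes differed in how far the MCAO libraries lay below sham. H4 genes, which make the histone partner of H3, summed to 15.8 ± 2.03 TPM in knockdown, 8.99 ± 2.43 TPM in control oligo and 378 ± 102 TPM in sham (SD, n = 3 each), so that control oligo stood at 2.38% and knockdown at 4.18% of the sham mean. H3 genes summed to 5.55 ± 0.935 TPM in knockdown, 3.94 ± 0.462 TPM in control oligo and 48.6 ± 10.7 TPM in sham. Both classes were low in all 6 MCAO libraries and did not overlap with sham. H2A genes summed to 29.8 ± 6.59 TPM in knockdown, 21.7 ± 3.64 TPM in control oligo and 59.9 ± 12.4 TPM in sham. Of these, Hist2h2aa1 was listed at 9.00 TPM in knockdown replicate 4 and at 7.64 TPM in control oligo replicate 3. It stood at 0 in the other MCAO libraries. H2B genes summed to 73.7, 92.6 and 64.4 TPM in knockdown, 65.0, 53.4 and 73.3 TPM in control oligo and 107, 91.8 and 119 TPM in sham, so that the highest knockdown library lay above the lowest sham library. H1 genes summed to 52.2 ± 18.2 TPM in knockdown, 29.8 ± 12.1 TPM in control oligo and 59.3 ± 7.12 TPM in sham, and knockdown overlapped with sham. In sham libraries the H4 genes held 54.0 to 59.9% of the summed member TPM. They held 7.57 to 9.85% of it in knockdown and 5.75 to 7.50% in control oligo libraries.

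Kept members were defined as those at 1 TPM or more in each of the 6 MCAO libraries, and there were 7 of 69: Hist1h1c, Hist1h2bc, Hist3h2ba, Hist3h2a, Hist1h2bg, Hist1h4i and Hist2h2be. In sham libraries 51 members reached 1 TPM in all 3, the 7 kept ones among them. Of all 14566 genes that reached 1 TPM in every sham library, 91.3% did so in every MCAO library. Just outside the threshold were Hist2h3c1, at 0.993 TPM in control oligo replicate 3, Hist1h4h, at 0.955 TPM in knockdown replicate 4, and Hist2h3c2, at 0.775 TPM in control oligo replicate 1. Hist2h2be, with a lowest MCAO value of 2.31 TPM, and Hist1h4i, with 1.83 TPM, were the kept members nearest to it. At a threshold of 0.5 TPM, 11 members were kept. The kept members summed to 132, 165 and 146 TPM in knockdown, to 125, 94.3 and 108 TPM in control oligo and to 113, 93.2 and 126 TPM in sham libraries, so that on TPM control oligo and sham overlapped and all 3 knockdown libraries were above both. After median-ratio scaling of the libraries this order did not hold: the scaled sums were 107, 141 and 127 in knockdown, 109, 73.9 and 104 in control oligo and 146, 121 and 187 in sham, so that sham was above control oligo and knockdown overlapped with both. The other 62 members summed to 30.9, 32.0 and 34.7 TPM in knockdown, to 17.5, 13.7 and 26.9 TPM in control oligo and to 571, 401 and 652 TPM in sham. Sham was far above both MCAO groups on either scale. Knockdown and control oligo, apart on TPM, overlapped after scaling (25.0 to 30.1 in knockdown, 10.7 to 25.9 in control oligo). The overlap came from control oligo replicate 3, at 25.9. The kept members thus held 80.1 to 87.7% of the summed member TPM in the MCAO libraries and 16.2 to 18.8% in sham.

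Hist1h1c, a linker histone H1 gene of the Hist1 cluster (chr13:23738808-23740367, plus strand), had the highest mean in MCAO cortex. Its level was 30.0, 54.1 and 63.5 TPM in knockdown, 43.1, 22.4 and 20.9 TPM in control oligo and 19.2, 18.1 and 23.4 TPM in sham libraries. On TPM, knockdown was above sham in every library, while control oligo overlapped with both other groups. The MCAO mean was 193% of the sham mean on TPM and 121% after median-ratio scaling. Its annotated transcript runs 840 bases past the stem-loop and ends with the signal shown above. Hist1h2bc, an H2B gene (chr13:23684199-23692908, plus strand), was at 33.7, 47.3 and 36.5 TPM in knockdown, 34.1, 24.4 and 31.3 TPM in control oligo and 16.8, 15.0 and 20.3 TPM in sham. On TPM, it was the 1 member for which all 6 MCAO libraries lay above all 3 sham libraries, as did 26.9% of the 35100 genes above 0 in any library. The MCAO mean of Hist1h2bc was 199% of the sham mean on TPM and 125% after median-ratio scaling. Its transcript model has several exons, and neither motif was found in it.

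The Hist3 genes of chromosome 11 overlapped between groups on TPM, while their scaled MCAO means lay below the sham means. Hist3h2ba, an H2B gene (chr11:58948920-58949533, plus strand), was at 22.4, 25.2 and 13.9 TPM in knockdown, 19.0, 18.8 and 26.1 TPM in control oligo and 21.3, 20.5 and 23.1 TPM in sham. Hist3h2a, an H2A gene (chr11:58954685-58956830, plus strand), was at 32.4, 20.1 and 17.7 TPM in knockdown, 17.4, 19.7 and 16.1 TPM in control oligo and 24.7, 18.2 and 25.7 TPM in sham. For both genes the 3 groups overlapped on TPM. After median-ratio scaling the MCAO mean was 56.0% of the sham mean for Hist3h2a and 61.4% for Hist3h2ba, the second of which was at 96.8% on TPM. The model of Hist3h2ba runs 169 bases past the stem-loop and that of Hist3h2a 1643 bases, and both end with a poly(A) signal. Hist3h2a shares its strand with Trim17 and overlaps Gm44313 on the opposite strand, and reads of overlapping genes may have been divided between them.

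The remaining kept members were lower. Hist1h2bg, an H2B gene whose model runs 155 bases past the stem-loop with no poly(A) signal found, was at 7.13, 10.1 and 5.97 TPM in knockdown, 6.04, 4.48 and 6.90 TPM in control oligo and 12.5, 8.16 and 13.1 TPM in sham. Hist1h4i, the 1 kept H4 gene, with ATTAAA at the end of a model that runs 330 bases past the stem-loop, was at 4.10, 5.21 and 5.08 TPM in knockdown, 2.63, 1.83 and 3.65 TPM in control oligo and 16.2, 10.6 and 17.7 TPM in sham. On TPM, Hist1h4i did not overlap between any of the groups, lowest in control oligo and highest in sham. Its knockdown and control oligo libraries lay close, at 4.10 TPM in knockdown replicate 2 and 3.65 TPM in control oligo replicate 3, and this separation does not hold after median-ratio scaling. Hist2h2be, an H2B gene whose model ends with a poly(A) signal and holds no matching stem-loop, was at 2.39, 3.34 and 3.41 TPM in knockdown, 2.31, 2.64 and 3.13 TPM in control oligo and 2.68, 2.68 and 2.87 TPM in sham. All groups overlapped on TPM, where its MCAO mean was 105% of the sham mean, against 66.3% after scaling.

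**Figure D2:**
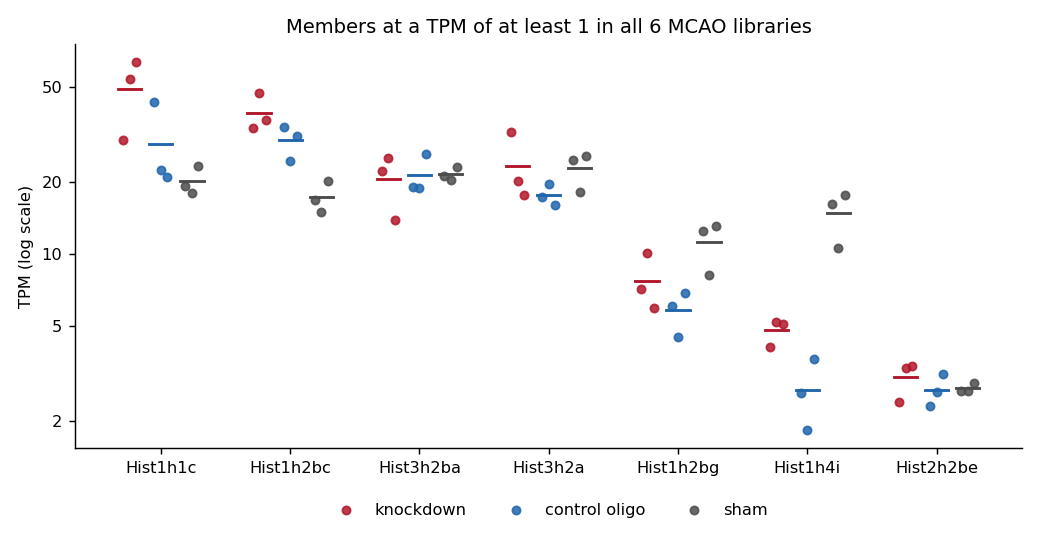
TPM (log axis) of the 7 members at 1 TPM or more in all 6 MCAO libraries, ordered by their mean there; points are knockdown, control oligo and sham libraries and bars group means. Hist1h2bc lies above sham in all 6 MCAO libraries, and Hist1h4i lies below sham in all 6.

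The highest members in sham cortex were H4 genes. Hist1h4h was at 6.02, 3.91 and 0.955 TPM in knockdown, 2.76, 1.01 and 3.02 TPM in control oligo and 65.7, 43.1 and 80.5 TPM in sham libraries. Hist1h4c was at 0.408, 1.40 and 0.304 TPM in knockdown, 0.342, 0.0332 and 0.376 TPM in control oligo and 49.0, 36.1 and 54.2 TPM in sham. Hist1h4k was at 2.06, 3.40 and 2.80 TPM in knockdown, 1.48, 0.991 and 0.203 TPM in control oligo and 43.3, 27.1 and 51.4 TPM in sham. All 3 genes were low in every MCAO library, far from the lowest sham library. Of the 10 members with the highest sham means, 9 were H4 genes and the other was Hist3h2a. The remaining 6 of these, Hist1h4d, Hist1h4f, Hist1h4n, Hist1h4a, Hist1h4m and Hist1h4b, had sham means of 25.4 to 40.3 TPM and means over the 6 MCAO libraries of 0.248 to 0.978 TPM. H4 genes encode the same protein from near-identical coding sequences, so reads may have been divided among them, and single H4 values are less certain than the class sum.

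The level in MCAO relative to sham was also set beside the annotated end, as a description, for the 60 members with a sham mean of 1 TPM or more. The mean over MCAO libraries was a median of 14.6% of the sham mean for the 16 of these members with a poly(A) signal, 2.51% for the 29 with a stem-loop and no signal, and 3.39% for the 15 with neither. A signal in any model of a member counted. For Hist1h2bp, Hist1h2bq and Hist1h2br it lay only in models of several exons. Most of their mean sham TPM, 2.02, 3.62 and 3.24 TPM, sat on single-exon models without a signal. The kept members were 5 of all 17 members with a signal, 1 of 32 with a stem-loop alone and 1 of 20 with neither. Of 23 members whose model ran 100 bases or more past the stem-loop, 5 were kept, against 0 of 23 whose model ended nearer. The ranges overlapped widely. Hist1h4a, whose model ran 108 bases past the stem-loop and held a signal, had an MCAO mean of 1.15% of its sham mean, and Hist1h4d, whose model ran 770 bases past the stem-loop without a signal, of 0.943%. Hist2h3c2, an H3 gene with no signal found, had 169%, at 2.19 ± 0.981 TPM in knockdown, 1.26 ± 0.422 TPM in control oligo and 1.02 ± 0.337 TPM in sham (SD, n = 3 each). After median-ratio scaling it had 108%, and its change in control oligo against sham, 0.16 on TPM (limma adjusted p = 0.528), was -0.18 after scaling and -0.36 over nuclear protein-coding genes. Annotated ends come from a catalogue of transcripts and were not measured in these libraries.

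**Figure D3:**
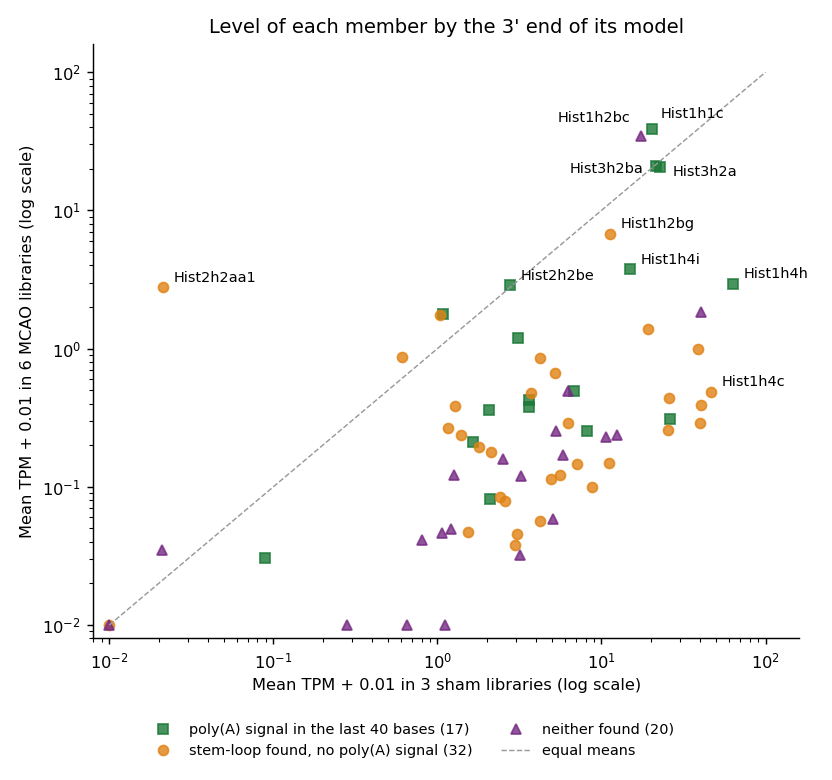
Mean TPM of each of the 69 members in 3 sham libraries and in 6 MCAO libraries (both axes log, 0.01 added), with the 3′ end of the annotated model as colour and shape; the dashed line marks equal means. The kept members lie near the line, except Hist1h4i, and Hist1h4h and Hist1h4c lie far under it.

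Control oligo cortex was set against sham cortex in limma, on log2(TPM + 1) of the 17080 genes that reached 1 TPM in at least 3 of the 9 libraries, a scale that understates the change of low genes. Of the 69 members 53 passed this filter and 16 did not, and 36 of the 53 passed with no MCAO library at 1 TPM, so that they had to differ from sham. Over all 69 members, without a filter, 55 had all 6 MCAO libraries below all 3 sham libraries, as did 14.4% of the 35100 genes above 0 in any library, and 2 members, Hist1h2aa and Hist2h2aa2, were listed at 0 everywhere. In the fit without a filter, 56 of 67 members were called lower and 1 higher, beside 11.5% and 25.4% of 34162 genes. Among the 53, 46 were called lower at an adjusted p (Benjamini-Hochberg) under 0.05 and 1 higher, beside 12.8% lower and 52.6% higher among all genes fitted. The median change over the 53 was -2.05, beside 0.56 over all genes fitted. Of the 13 members that 3 or more MCAO libraries carried over the filter, 6 were called lower and 1 higher.

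The 5 called members of largest fall were H4 genes. Hist1h4c fell by 5.24 on the log2 scale (SE 0.21, limma adjusted p = 5.39e-07). The change was -5.01 for Hist1h4d, -4.51 for Hist1h4n and -4.47 for Hist1h4k, and that of Hist1h4f lay between those of Hist1h4d and Hist1h4n, and all 4 passed. Among the kept members, Hist1h4i fell by 2.10 (SE 0.25, limma adjusted p = 0.00018) and Hist1h2bg by 0.84 (SE 0.23, limma adjusted p = 0.0107). Hist1h2bc was called higher, by 0.75 (SE 0.18, limma adjusted p = 0.00586), but after median-ratio scaling of the libraries its change was 0.14 (adjusted p = 0.613), and with TPM taken over nuclear protein-coding genes it was -0.02 (adjusted p = 0.932). Hist1h1c, at 0.42 (adjusted p = 0.187), Hist3h2a, at -0.34 (adjusted p = 0.116), Hist3h2ba, at -0.03 (adjusted p = 0.877), and Hist2h2be, at -0.02 (adjusted p = 0.904), did not pass in limma. After median-ratio scaling, which put the median of all genes at 0.03 in place of 0.56, limma called the last 3 of these lower (Hist3h2a -0.95, Hist3h2ba -0.64, Hist2h2be -0.50), and Hist1h1c was at -0.19 (adjusted p = 0.596). On that scale 49 of the 53 members were called lower and 0 higher, beside 4821 lower and 4647 higher of all genes; at an unadjusted p under 0.05 limma also had 0 members higher.

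Knockdown cortex against sham shares its sham libraries with the comparison above. Here 45 of the 53 members were called lower and 2 higher, beside 12.5% and 52.7% of all genes fitted. The 36 members with no MCAO library at 1 TPM had to differ from sham here too. Without a filter, 52 of 67 members were called lower and 2 higher, beside 3982 lower and 8465 higher of 34196 genes. With the filter, those called higher were Hist1h1c, by 1.18 (SE 0.27, limma adjusted p = 0.00554), and Hist1h2bc, by 1.12 (SE 0.18, limma adjusted p = 0.000944). After median-ratio scaling neither passed in limma, with Hist1h1c at 0.52 (adjusted p = 0.191) and Hist1h2bc at 0.47 (adjusted p = 0.0941). Hist1h4c fell by 4.83 (SE 0.27, limma adjusted p = 1.03e-05) and Hist1h4i by 1.43 (SE 0.21, limma adjusted p = 0.000755). Hist1h2bg, at -0.49 (adjusted p = 0.106), Hist3h2ba, at -0.11 (adjusted p = 0.667), Hist2h2be, at 0.10 (adjusted p = 0.627), and Hist3h2a, at 0.00 (adjusted p = 0.997), did not pass in limma. After median-ratio scaling Hist1h2bg (-1.11, limma adjusted p = 0.0105) and Hist3h2ba (-0.76, limma adjusted p = 0.0227) were called lower, and Hist2h2be (-0.41, adjusted p = 0.0963) and Hist3h2a (-0.66, adjusted p = 0.0589) did not pass. With TPM over nuclear protein-coding genes these 4 were all called lower, with changes of -1.37 for Hist1h2bg, -0.99 for Hist3h2ba, -0.66 for Hist2h2be and -0.88 for Hist3h2a.

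Knockdown against control oligo, the comparison within 1 library type, gave no member that passed the test. At an adjusted p under 0.05, limma called 0 of the 53 members higher and 0 lower, beside 0.00585% of 17080 genes in each direction, and at an unadjusted p under 0.05, 7 members were higher and 0 lower, beside 1.04% and 0.843% of all genes. Without a filter, 10 of all 69 members had each knockdown library above each control oligo library and 0 had each below, beside 2.5% and 1.83% of the 35100 genes. Of these 10, 8 were below 1 TPM in all 3 control oligo libraries. The median change over the 53 members was 0.13, beside 0.06 over all genes fitted. Of the 53, 36 had no MCAO library at 1 TPM, where this scale understates a change. With a filter on a mean of 1 TPM over the libraries compared, 14 members were fitted, 13 with a positive and 1 with a negative change. Their median was 0.38, beside 0.07 over all genes, and 0 were called. With a pseudocount of 0.1 the median over the 53 was 0.46, beside 0.07. A p that misses the threshold does not show that the groups were alike.

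Hist1h1e, a linker histone H1 gene, had the smallest p. Its level was 1.25, 2.65 and 2.82 TPM in knockdown, 0.474, 0.738 and 0.385 TPM in control oligo and 19.5, 15.0 and 22.9 TPM in sham libraries. The 3 groups did not overlap. The difference between knockdown and control oligo was 1.05 (SE 0.23, limma adjusted p = 1.0). Hist1h1e overlaps Hist1h2be and Gm11398 on the same strand, so its reads may include theirs. Hist1h4k, with the levels given above, differed by 1.04 (SE 0.30, limma adjusted p = 1.0), and Hist1h4i by 0.67 (SE 0.24, limma adjusted p = 1.0). The linker histone gene Hist1h1a was at 0.283, 0.559 and 0.391 TPM in knockdown, 0, 0.129 and 0 TPM in control oligo and 11.8, 14.1 and 11.5 TPM in sham. Hist1h4m was at 0.696, 0.768 and 0.390 TPM in knockdown, 0.302, 0.293 and 0.124 TPM in control oligo and 27.1, 19.6 and 30.9 TPM in sham. Hist1h2ag, an H2A gene, was at 0.439, 0.163 and 0.809 TPM in knockdown, 0.0972, 0 and 0.0341 TPM in control oligo and 1.22, 1.00 and 1.25 TPM in sham. In the MCAO libraries these last 3 genes lay at levels that rest on few fragments, and all 3 stood at adjusted p = 1.0 in limma. Among the more abundant members, Hist1h1c was at 0.76 (SE 0.37, limma adjusted p = 1.0) and Hist1h2bc at 0.37 (SE 0.20, limma adjusted p = 1.0), and both overlapped between the groups. In knockdown replicate 4, the library with high neutrophil, astrocyte, microglia and endothelial markers, Hist1h1c was at its highest, 63.5 TPM, and the members summed to 181 TPM, between the other knockdown libraries. What these cell types contributed was not tested.

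**Figure D4:**
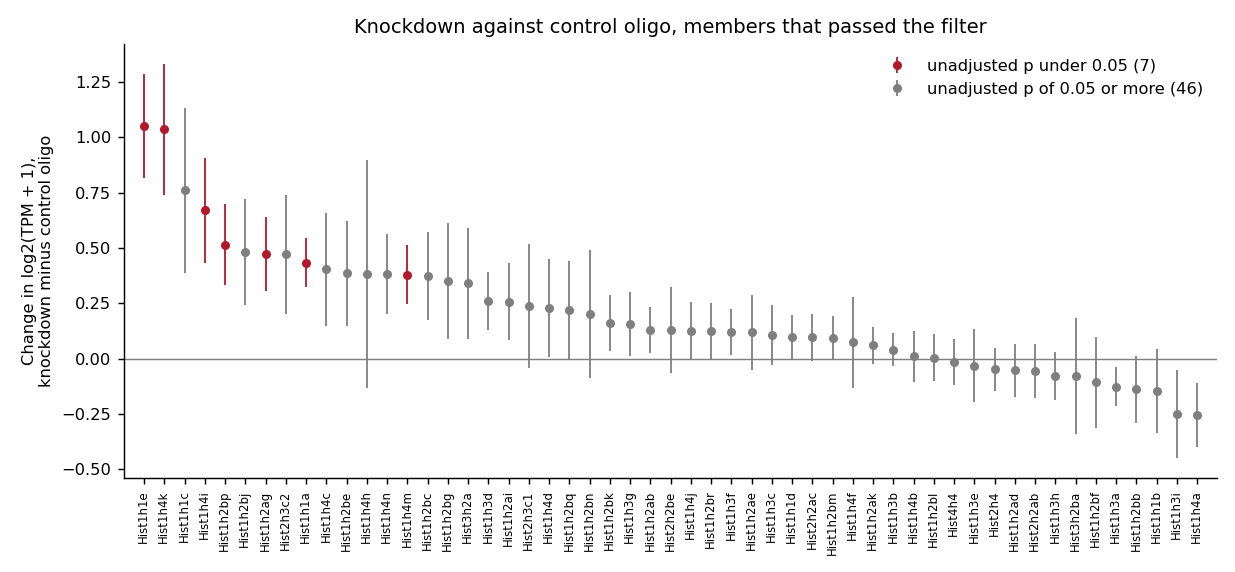
Change in log2(TPM + 1), knockdown minus control oligo, for the 53 members that passed the filter, with the standard error of limma as bars; the 7 members with an unadjusted p under 0.05 are in red. All 7 lie above 0, and no member has an adjusted p under 0.05.

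Some members could not be read as single genes. Hist2h2aa1, an H2A gene of the Hist2 cluster, was listed at 0, 0 and 9.00 TPM in knockdown, at 0, 0 and 7.64 TPM in control oligo and at 0.0338, 0 and 0 TPM in sham. Hist2h2aa2, its neighbour with the same stem-loop sequence, was listed at 0 in all 9 libraries. The 3 libraries with a value, knockdown replicate 4, control oligo replicate 3 and sham replicate 1, were also those in which nearly all TPM of the neighbouring Hist2h3c1 sat on the shorter of its 2 transcript models. Gm20634 overlaps Hist2h2aa1 and Hist2h3c1 on the same strand. How the authors' program divided these reads was not tested. Hist2h2aa1 was above 1 TPM in 2 libraries and did not pass the filter.

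Of the replication-independent histone genes, 9 of 11 were called higher and 0 lower in control oligo against sham, beside 52.6% and 12.8% of all genes fitted. Their median change was 1.03, beside 0.56 over all genes. With median-ratio scaling the counts were 6 higher and 0 lower (median 0.41, beside 0.03), and over nuclear protein-coding genes 5 and 0 (median 0.25). H3f3b, which encodes the H3.3 variant, was at 275, 248 and 304 TPM in knockdown, 243, 235 and 198 TPM in control oligo and 56.4, 58.3 and 60.5 TPM in sham libraries. It rose by 1.92 in control oligo against sham (SE 0.13, limma adjusted p = 9.03e-06). Cenpa, the H3 variant of centromeres, rose by 2.57 (SE 0.20, limma adjusted p = 2.05e-05) and H2afx, the H2A variant phosphorylated at DNA breaks, by 1.57 (SE 0.16, limma adjusted p = 8.4e-05), and both still passed after scaling. In knockdown against control oligo 0 of 11 were called in either direction, with unadjusted p under 0.05 for 3. H3f3a, the other H3.3 gene, was at 105, 103 and 132 TPM in knockdown and 70.6, 69.6 and 70.8 TPM in control oligo libraries, without overlap (difference 0.67, SE 0.14, limma adjusted p = 1.0). H1f0, the linker histone of resting cells, was at 85.9, 95.0 and 87.5 TPM in knockdown and 65.8, 68.7 and 66.3 TPM in control oligo (difference 0.41, SE 0.12, limma adjusted p = 1.0).

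**Figure D5:**
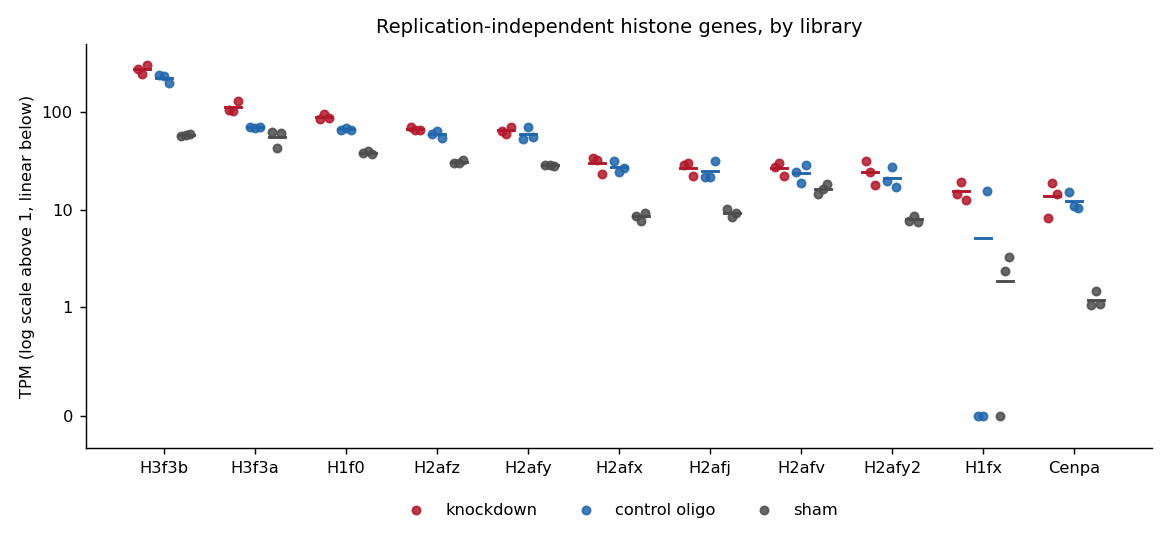
TPM of 11 replication-independent histone genes in knockdown, control oligo and sham libraries (axis log above 1 and linear below); points are libraries and bars group means. H3f3b lies between 198 and 304 TPM in the 6 MCAO libraries and between 56.4 and 60.5 TPM in sham, and H1fx is listed at 0 in 3 libraries.

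Lists of genes that act on histone mRNA or histones are read beside the 52.6% of all fitted genes called higher and the 12.8% called lower in control oligo against sham. Of 14 fitted genes for 3′ end processing and decay of histone mRNA, 8 were called higher and 1 lower in control oligo against sham, with scaling 3 and 5, and over nuclear protein-coding genes 0 and 5. Casp8ap2, a factor of histone gene transcription and 3′ end formation, was lower on both scales, by 1.02 (SE 0.21, limma adjusted p = 0.00301) before scaling. Slbp, named here for its role as the stem-loop binding protein and outside the rule for named genes, was at 17.6, 16.1 and 16.6 TPM in knockdown, 17.8, 17.4 and 14.9 TPM in control oligo and 12.2, 11.7 and 9.70 TPM in sham. Its change against sham was 0.54 (limma adjusted p = 0.0165), and -0.06 (adjusted p = 0.686) after scaling. Of 14 histone chaperones, 9 were higher and 1 lower, 3 and 3 after scaling, and 1 and 3 over nuclear protein-coding genes. Npm1, a chaperone of the nucleolus, rose by 1.53 (SE 0.16, limma adjusted p = 8.31e-05) and by 0.90 after scaling (adjusted p = 0.000233). Of 19 fitted genes of S phase and proliferation, 14 were higher and 0 lower, and 4 and 1 after scaling. Over nuclear protein-coding genes 2 of 20 were higher and 1 lower. Pcna, the sliding clamp of DNA replication, was at 58.1, 63.2 and 77.2 TPM in knockdown, 52.4, 50.4 and 55.9 TPM in control oligo and 25.1, 24.1 and 24.0 TPM in sham. In knockdown against control oligo 0 genes of these 3 lists were called. Top2a, a topoisomerase of dividing cells, was at 1.41, 2.05 and 9.97 TPM in knockdown and 1.15, 2.03 and 0.511 TPM in control oligo libraries, so that knockdown replicate 4 stood apart.

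All 8 fitted RNAs of the list without a poly(A) tail were called lower in control oligo against sham, with a median change of -9.70, and also in knockdown against sham, with -10.14. Rn7sk, given above, was one of them. Most members and these RNAs were low in the same libraries, those made by poly(A) selection, and what the selection contributed to the difference from sham was not tested. Neutrophil markers were higher against sham, 4 of 4 fitted in control oligo, with Retnlg listed at 0 in all 3 sham libraries, and their part in the member values was not tested either.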

How the data were processed

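The deposited tables give, for each transcript in each of 9 libraries, a coverage, an FPKM and a TPM value. Per the file headers the authors made them with StringTie 1.3.4d, quantifying a merged annotation with no strand option; the submitters' processing notes name HISAT2 2.0, StringTie 1.3 and the builds GRCm38 and mm10. TPM was summed over transcripts of a gene ID. The sources used here give no read counts, so depth was taken from deposited coverage and FPKM as aligned bases, and no count test was run. limma 3.58.1 (trend, R 4.3.3) was fitted per comparison on its own 6 libraries, two-sided, on log2(TPM + 1), with Benjamini-Hochberg adjustment over all genes fitted; the steps were tested on simulated data. P-values measure the spread between 3 libraries a group.

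The members and lists were chosen with earlier results of these data known. Named are the 10 highest members in MCAO and in sham, the 5 of smallest p in knockdown against control oligo, those called higher and the 5 largest falls in control oligo against sham, and up to 4 genes of a list by p. Alternatives were median-ratio scaling (19123 genes above 0 in all libraries), the deposited FPKM, TPM over nuclear protein-coding genes, a pseudocount of 0.1, other filters and thresholds, 1 fit of all 9 libraries, a replicate block, and leaving out each library. Symbols came from the files, and 52403 gene IDs were found in GENCODE M21. 1 listed gene, Tut7, was not found under that symbol. Motif sequences are GENCODE M21's.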

Additional observations from a re-analysis of the deposited data

How the results depend on the processing

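In knockdown against control oligo, limma called 0 members in either direction under every alternative run. The members called higher against sham depended on scaling: with median-ratio scaling, FPKM or TPM over nuclear protein-coding genes there were 0 in control oligo and 0 in knockdown. On these scales the log2 ratio of the summed members was -2.98, -2.94 and -3.15 for control oligo against sham, beside -2.35 on TPM, and -2.55, -2.49 and -2.76 for knockdown against sham, beside -1.85. At 0.5 TPM 11 members were kept in every MCAO library. Leaving out each library gave 1 to 1 members higher and 45 to 46 lower for control oligo against sham, 2 to 3 higher and 43 to 45 lower for knockdown against sham, and 0 to 0 for knockdown against control oligo, with summed log2 ratios of -2.51 to -2.20, -2.02 to -1.71 and 0.38 to 0.57. Without sham replicate 3, Hist1h2bg no longer passed in control oligo against sham (adjusted p = 0.0508). Deviations of same-numbered libraries had correlations of -0.07 to 0.23. With so few libraries a group, these cannot show whether the numbers pair the samples. With the replicate block, 0 members were called in knockdown against control oligo. It gave 1 higher and 46 lower in control oligo against sham, and 3 higher and 43 lower in knockdown against sham. The block turned Hist1h4f (-0.025), Hist2h2be (-0.014) and Hist3h2ba (0.094) in knockdown against control oligo and Hist3h2ba (0.12) in knockdown against sham.

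Other values changed sign in members that had not passed, apart from Hist1h2bc. In knockdown against control oligo, Hist1h4b was -0.0020 with median-ratio scaling and -0.0089 over nuclear protein-coding genes, and leaving out a library gave -0.052 to 0.083 for Hist1h4b, -0.076 to 0.26 for Hist1h4f, -0.010 to 0.91 for Hist1h4h and -0.24 to 0.16 for Hist3h2ba. In control oligo against sham, Hist1h1c was -0.19 with median-ratio scaling, -0.15 with FPKM and -0.36 over nuclear protein-coding genes, and Hist1h2bc -0.023 over the last. Leaving out a library there gave -0.11 to 0.051 for Hist2h2be and -0.18 to 0.046 for Hist3h2ba. In knockdown against sham, these 3 scales gave -0.41, -0.31 and -0.66 for Hist2h2be and -0.66, -0.59 and -0.88 for Hist3h2a, and leaving out a library gave -0.25 to 0.17 for Hist3h2a and -0.27 to 0.13 for Hist3h2ba. The cause was not tested. Levels far below 1 TPM in MCAO libraries are limited by depth.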

Other observations

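The genes below were chosen after their values were seen. For 5 members the files hold several transcript models. Hist1h2be, an H2B gene, has a single-exon model of 2099 bases, listed at 0.0159 TPM or less in every library, and models of 2480 and 2506 bases with 2 exons, which carried nearly all of its TPM. Its sum over models was 2.19, 1.03 and 1.24 TPM in knockdown, 0.461, 1.01 and 1.21 TPM in control oligo and 3.21, 3.21 and 2.79 TPM in sham libraries. Hist1h2br, another H2B gene, had 0.179, 3.50 and 6.04 TPM on its single-exon model in the sham libraries, and 0.987, 0.0302 and 0.00282 TPM on its model of 3 exons, so that sham replicate 1 was placed differently from the others. Hist1h2ac, an H2A gene whose model runs on past the stem-loop with no signal found, was at 0.971, 1.35 and 1.01 TPM in knockdown, 0.398, 0.650 and 0.771 TPM in control oligo and 0.494, 0.455 and 0.840 TPM in sham. On TPM, knockdown did not overlap with either other group. Each knockdown library lay above each control oligo library in 2.5% of 35100 genes. The MCAO mean of Hist1h2ac was 144% of the sham mean on TPM and 89.2% after median-ratio scaling. Gm24991 overlaps Hist1h2ac on the same strand.

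Hist4h4, an H4 gene outside the main clusters, whose model ends with a poly(A) signal, was at 0.0782, 0.0367 and 0.0774 TPM in knockdown, 0, 0.228 and 0.00851 TPM in control oligo and 1.92, 1.73 and 2.59 TPM in sham. Hist2h4 was at 0.455, 0.444 and 0.475 TPM in knockdown, 0.437, 0.618 and 0.475 TPM in control oligo and 7.38, 5.34 and 7.62 TPM in sham. Both have a signal in the annotated model and lay below sham in all 6 MCAO libraries.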
